A study of Mus musculus with 26 samples.

Results

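The genes described here encode the nuclear-coded subunits of oxidative phosphorylation (OXPHOS), measured in the mouse blood progenitor line EML, whose cells need stem cell factor to grow and can give erythroid, myeloid and lymphoid progeny. Members were all array genes whose symbol starts with Nduf, Sdha, Sdhb, Sdhc, Sdhd, Uqcr, Cox4, Cox5, Cox6, Cox7, Cox8 or Atp5, without pseudogenes, and each was read from its probe with the highest mean signal over all arrays. The rule took 95 of 18374 named genes: 37 subunits of complex I, 4 of complex II, 8 of complex III, 18 of complex IV and 17 of complex V, with 7 assembly factors of complex I (Ndufaf genes) and 4 of complex II (Sdhaf genes). Of these, 94 were tested in all 3 array sets, since their probe was well above background throughout 1 or more groups of each set. Cox8c, the testis form of a complex IV subunit, was not.

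Total RNA of 8 cell populations, from 3 or 4 samples each, was read on 26 arrays with 1 colour, in 3 sets on separate slides. The 3 fractions sorted by flow cytometry on Sca1, CD34 and cKit made up set 1: EryCP, CR Sca1lo and Sca1hi, on 3 slides that each carried 1 array of each fraction. Set 2 held Ediff, which are EryCP cells driven to differentiate with erythropoietin (Epo) and then taken as lacking CD34 and cKit, with EryCP repeat, a new measurement of the EryCP fraction (3 arrays each). Set 3 held CD34- CD103- Epo (3 arrays), CD34- CD103- (4) and CD34+ CD103- (4), the first of these being CD34- CD103- cells differentiated with Epo. CD103 is an integrin chain, the product of Itgae. All 8 populations came from the same line, grown with horse serum and medium conditioned with stem cell factor. Nothing in the labels shows that replicates were separate cultures, so p-values measure only the spread between these samples, which may be technical. Neither a dose nor a duration of Epo is given in the labels.

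Oxidative phosphorylation couples respiration to ATP synthesis in the inner mitochondrial membrane. Complexes I and II pass electrons from NADH and succinate to ubiquinone, complex III passes them on to cytochrome c, complex IV reduces oxygen, and complex V makes ATP from the proton gradient. Most subunits are encoded in the nucleus and a few in mitochondrial DNA, and no gene of mitochondrial DNA was among the named probes here. In the erythroid lineage, mitochondria serve haem synthesis and iron-sulphur cluster assembly and are cleared from the cell before the red cell is mature. Several complex IV subunits exist as isoforms from separate genes, such as the heart and muscle forms Cox6a2 and Cox7a1 beside the widely used forms Cox6a1 and Cox7a2.

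Levels are log2 processed signals relative to the 75th percentile of their array, so that 0 is the level of that percentile, and a level of 1 gene's probe is not set against another's. Differences are in log2 ± standard error with the Benjamini-Hochberg adjusted p of limma over all genes tested, and "called" means an adjusted p under 0.05. The signal at the 75th percentile was 425 to 461 on Ediff arrays and 599 to 704 on EryCP repeat arrays, 649 to 1034 in set 1 and 758 to 1247 in set 3. OXPHOS genes were bright: with all genes of a set parted by mean level into 5 equal classes, 85 of the 94 lay in the brightest class in set 2 and 83 in set 3.

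Ediff cells were compared with EryCP repeat cells to follow EryCP cells through Epo-driven differentiation. Of the 94 OXPHOS genes 79 rose and 3 fell in Ediff cells, with a median difference of 0.71 and a range of -0.86 to 2.22. Over all 24673 genes tested 38.8% rose and 17.2% fell, and their median difference was 0.44. Among the 4935 genes of the brightest class 52.5% rose, with a median of 0.35, and the 85 OXPHOS genes in that class had a median of 0.71. The 3 arrays of one group and the 3 of the other did not overlap for 88 of the 94 genes, against 63.0% of all genes, and 84 of the 88 were higher in Ediff cells. In RNA of bulk cells, a change in the number of cells of a type and a change in RNA per cell cannot be told apart.

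The direction of this shift depends on what each array is scaled to. Spike-in RNA, read on 9 probes, stood 3.20 to 3.32 above the 75th percentile on the Ediff arrays and 2.15 to 2.44 above it on the EryCP repeat arrays. With the arrays scaled to the spike-ins instead, the OXPHOS median difference was -0.23 and that of all genes -0.49, and 2 OXPHOS genes were called higher and 27 lower (4.17% and 45.0% of all genes). Of the 34 called genes that the naming rule took here, 21 that rose relative to the 75th percentile were lower with spike-in scaling, 6 with quantile normalization and 2 in the deposited table. "Rose" and "fell" below are relative to the 75th percentile. Spike-in scaling shifts all genes of an array alike, so the distance of OXPHOS genes from the median of all genes, 0.26, is fixed by its construction. They stood 0.10 above it with quantile normalization, 0.43 above it in the deposited value table and 0.40 above it with slide as a block. The distance was -0.03 with normexp background correction as planned, which left 0 OXPHOS genes called in either direction, with 0.235% of all genes called higher and 0.746% lower. It was 0.21, with 79 of 90 genes called higher (64.4% of all genes), when normexp was fitted without spots of outlying local background.

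**Figure D1:**
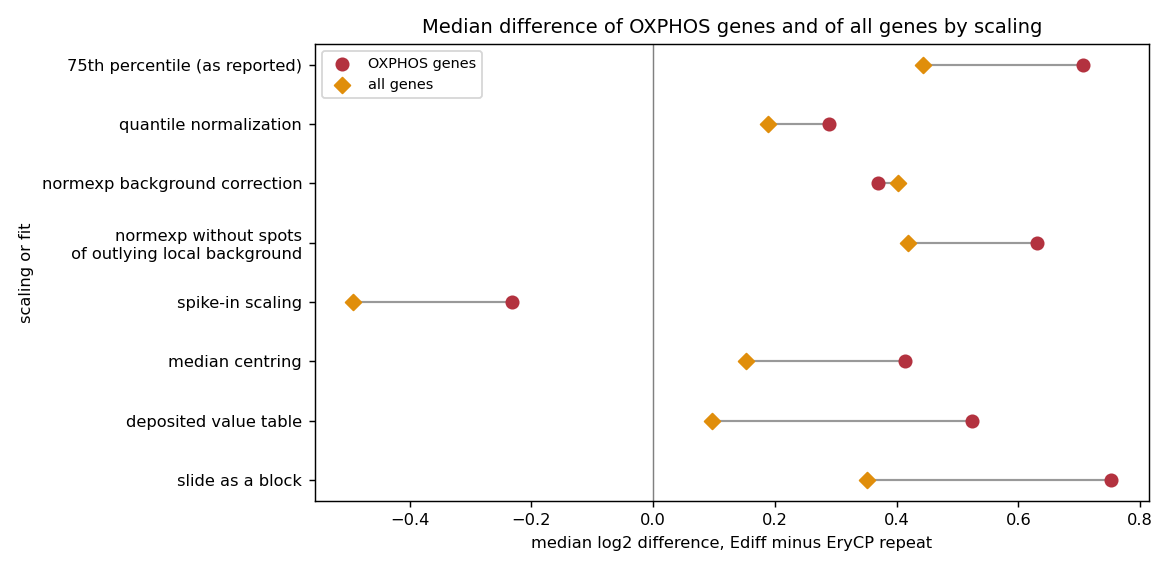
Median log2 difference of Ediff minus EryCP repeat (x axis) over OXPHOS genes (circles) and over all genes tested (diamonds) under each scaling or fit (y axis). The OXPHOS median runs from -0.23 with spike-in scaling to 0.75 with slide as a block, and lies above the median of all genes in every setting but the planned normexp correction.

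The populations themselves differed widely in their marker genes. The summed level of 9 measured erythroid markers (linear, in multiples of the array's 75th percentile) was 1507 to 1644 in Ediff cells and 35.6 to 51.4 in EryCP repeat cells. That of 8 mast cell and basophil markers was 11.3 to 13.9 in Ediff cells and 897 to 991 in EryCP repeat cells, and that of 7 neutrophil markers was 0.595 to 0.746 in Ediff cells and 51.4 to 61.3 in EryCP repeat cells. Such a sum follows its brightest genes. Of the markers tested, 9 of 9 erythroid ones rose and 7 of 8 mast cell and basophil ones fell. The neutrophil list was split, with 1 of 6 called higher and 3 lower. Cd34 was not well above background on any Ediff array, and these cells were sorted as lacking CD34. The part that these differences in cell type play in the OXPHOS shift was not tested.

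In complex I, the largest of the complexes, 32 of 37 subunits rose and 0 fell, with a median difference of 0.78. Ndufb4, a subunit of the membrane arm, had levels of 6.32, 6.30 and 6.27 on the Ediff arrays and 4.97, 4.93 and 4.99 on the EryCP repeat arrays. Its groups stood well apart, and it rose by 1.33 ± 0.08 (adjusted p = 5.79e-05, n = 3 each). Ndufs3, a core subunit of the peripheral arm, had levels of 5.60, 5.84 and 5.69 in Ediff cells and 4.53, 4.41 and 4.54 in EryCP repeat cells, a rise of 1.22 ± 0.10 (adjusted p = 0.000245). Ndufa5, also of the peripheral arm, had 6.60, 6.79 and 6.79 in Ediff cells and 5.44, 5.23 and 5.53 in EryCP repeat cells (1.32 ± 0.12, adjusted p = 0.000306), and Ndufb9 of the membrane arm rose by 1.18 ± 0.10 (adjusted p = 0.000224). None of these groups overlapped. Among the subunits that bind the electron carriers, Ndufv1, which holds the flavin and the NADH site, rose by 0.97 and Ndufs1, the large iron-sulphur subunit, by 0.65. The membrane arm subunit Ndufb8 rose by 0.88.

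Of the subunits of complex I that were not called, 4 are given here. Ndufb5 differed by -0.18, with levels of 1.88, 2.05 and 1.92 in Ediff cells and 2.15, 2.08 and 2.17 in EryCP repeat cells. Ndufv3 (0.23), Ndufa1 (0.29) and Ndufv2 (0.36) were positive, but of the 3 probes of Ndufv3 that passed the filter 2 were called lower (-0.77 at the lowest), so its direction depends on the probe. These 4, like the other uncalled genes named below, were named because they fell short of the test. Of the 7 assembly factors 4 rose and 1 fell. That gene, Ndufaf5, which modifies a core subunit of complex I, had levels of -0.63, -0.17 and -0.27 in Ediff cells and 0.28, 0.21 and 0.39 in EryCP repeat cells (-0.65 ± 0.15, adjusted p = 0.012). Its groups did not overlap.

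Complex II, succinate dehydrogenase, is the enzyme that the chain shares with the tricarboxylic acid cycle, and its 4 subunits split. Sdha, the flavin subunit, had levels of 1.71, 2.04 and 1.84 in Ediff cells and 2.20, 2.14 and 2.26 in EryCP repeat cells, and fell by 0.33 ± 0.11 (adjusted p = 0.0478). Its groups did not overlap, but the call was lost when any 1 array other than Ediff replicate 2 was left out (adjusted p of up to 0.137). Sdhb, the iron-sulphur subunit, had 4.18, 4.44 and 4.28 in Ediff cells and 4.39, 4.12 and 4.20 in EryCP repeat cells, overlapping groups with a difference of 0.06. The membrane anchors Sdhc and Sdhd rose by 0.39 and 0.42, below the median of all genes, and both were negative with spike-in scaling (-0.55 and -0.52). Their calls were lost when 5 and 3 of the 6 arrays, in turn, were left out (adjusted p of up to 0.145 and 0.0659). Of the 4 assembly factors 2 rose, and the list had a median of 0.17. Sdhaf4 differed by -0.21 and Sdhaf2, which attaches the flavin to Sdha, by 0.06.

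Of the 8 subunits of complex III 7 rose, with a median of 0.87. Uqcrfs1, the Rieske iron-sulphur protein, had levels of 5.27, 5.51 and 5.21 in Ediff cells and 4.45, 4.33 and 4.59 in EryCP repeat cells and rose by 0.88. The core proteins Uqcrc1 (0.62, and 0.36 at its other probe) and Uqcrc2 (0.46) rose less, and Uqcrb differed by 0.29 without passing the test. The electron carriers outside the member list were Cyc1, the haem subunit of complex III, which rose by 0.86, and cytochrome c itself, Cycs, which differed by 0.28 (adjusted p = 0.22). Of the 17 subunits of complex V 16 rose, with a median of 0.69. Atp5o, of the stalk that holds the catalytic head, rose by 1.12 ± 0.10 (adjusted p = 0.000263). The catalytic subunit Atp5b had levels of 8.06, 8.11 and 8.00 in Ediff cells and 7.40, 7.32 and 7.41 in EryCP repeat cells (0.68 ± 0.09, adjusted p = 0.00122), and its partner Atp5a1 rose by 0.40. Of the 3 probes of Atp5b only this one was called, with differences of 0.27 to 0.68, and of the 2 of Atp5a1 only 1 (0.24 to 0.40). The 3 genes of the rotor ring, Atp5g1, Atp5g2 and Atp5g3, which encode the same mature protein, rose by 0.86, 0.47 and 0.42. Among complex V genes only Atp5pb, a stator subunit, was not called (0.23). The calls of Uqcrc2, Atp5a1, Atp5g2 and Atp5g3 were lost when 3, 5, 1 and 3 of the 6 arrays, in turn, were left out (adjusted p of up to 0.0561, 0.0881, 0.0507 and 0.0574).

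**Figure D2:**
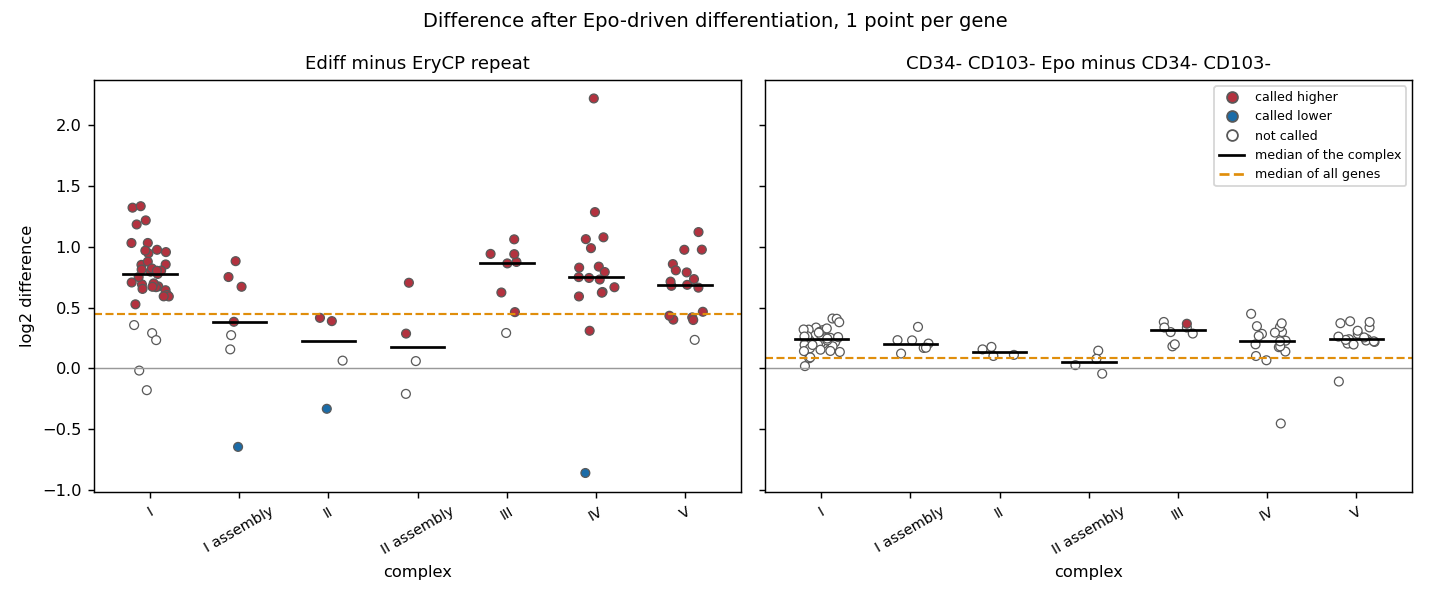
Log2 difference of each OXPHOS gene (points) by complex (x axis) in Ediff minus EryCP repeat (left) and CD34- CD103- Epo minus CD34- CD103- (right), relative to the 75th percentile. Filled points were called, bars are the medians of each complex, and dashed lines the medians of all genes, 0.44 on the left and 0.08 on the right. On the left the medians of complexes I, III, IV and V lie above the dashed line and those of complex II and of both sets of assembly factors below it.

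Complex IV held both the largest rise and the largest fall, in a pair of muscle-type isoforms. All 11 widely used forms rose, with a median of 0.74. Cox4i1 had levels of 7.90, 8.15 and 7.89 in Ediff cells and 7.06, 6.79 and 7.12 in EryCP repeat cells (0.99 ± 0.13, adjusted p = 0.00164), and Cox5a rose least, by 0.31, a call lost when 5 of the 6 arrays, in turn, were left out (adjusted p of up to 0.081). The muscle form Cox6a2 had levels of 1.73, 1.80 and 1.59 in Ediff cells and -0.48, -0.31 and -0.75 in EryCP repeat cells, far apart, and rose 4.67-fold (2.22 ± 0.14, adjusted p = 7.35e-05). It was higher in Ediff cells under every scaling, from 1.28 with spike-ins to 2.23 in the deposited table, though with normexp as planned it was not called (adjusted p = 0.242). Within the 2 slides that held both groups its difference was 1.97 and 2.42. The widely used form, Cox6a1, had 8.81, 8.79 and 8.76 in Ediff cells and 8.05, 7.99 and 8.07 in EryCP repeat cells, a rise of 0.74 relative to the 75th percentile that was -0.19 with spike-in scaling.

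The muscle form Cox7a1 moved the other way. Its levels were -0.43, -0.80 and -0.49 in Ediff cells and 0.31, 0.29 and 0.26 in EryCP repeat cells, with no overlap, and it fell by 0.86 ± 0.12 (adjusted p = 0.00193). It was negative under every scaling (-1.80 with spike-ins, -0.55 with normexp as planned, where it was not called). Cox7a2, its widely used counterpart, had 6.82, 7.01 and 6.97 in Ediff cells and 5.98, 5.70 and 5.88 in EryCP repeat cells, a rise of 1.08 ± 0.11 (adjusted p = 0.000556), and the related Cox7a2l rose by 0.62. The restricted forms Cox6b2 (1.06), Cox8b (0.83) and Cox4i2 (0.63) were called higher too, and the calls of Cox8b and Cox4i2 were lost when 5 and 4 of the 6 arrays, in turn, were left out (adjusted p of up to 0.127 and 0.0904). Cox7b2, counted among the 79, was dim. It was well above background on all 3 Ediff arrays but on 1 of the 3 EryCP repeat arrays, so it passed the signal filter through Ediff alone and its difference is not given weight here.

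**Figure D3:**
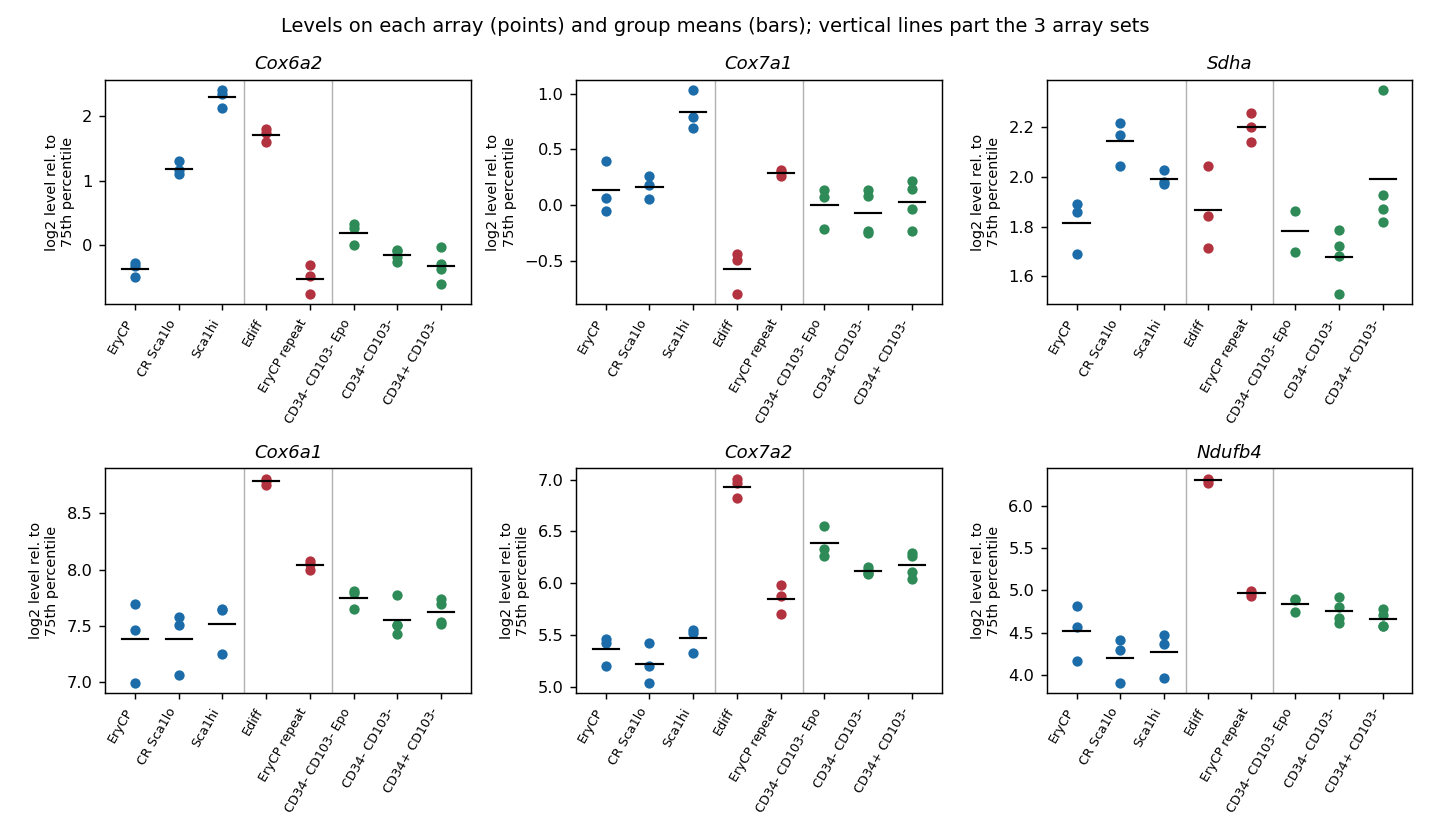
Levels of 6 OXPHOS genes on each array (points, log2 relative to the array's 75th percentile, y axis) with group means (bars) in the 8 groups (x axis), parted by array set. Within set 1 Cox6a2 is highest in Sca1hi cells. Within set 2 Cox6a2 is higher and Cox7a1 lower in Ediff cells than in EryCP repeat cells, and Ndufb4, Cox6a1 and Cox7a2 are higher on every Ediff array than on every EryCP repeat array.

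The start regions of these genes show what members share that the selection did not use. RefSeq windows from 250 bases before to 50 after the annotated start (GRCm38.p6) were at hand for 79 of the 95 members and 27025 genes in all. The NRF1 motif GCGCANGCGC, searched on both strands, was in a window of 21 members (26.6%) and of 5.19% of all genes. The ETS motif CCGGAAG, which GABP binds, was also in 21 members (26.6%) and in 9.93% of all genes. YY1's AAGATGG was in 13.9% of members and 7.28% of all genes, and the ERR motif TCAAGGTCA in 2.53% and 0.466%. Of motifs used in erythroid genes, the GATA motif AGATAA was in 7.59% of members and 12.7% of all genes, and CCACACCC, a KLF motif, in 3.80% and 4.09%. The windows of members held a median of 20 CpG, against 7 over all genes, and CG-rich motifs follow base composition. A match describes these letters and shows neither binding nor cause. Below are the windows of 5 genes whose values are given above, with NRF1 and ETS matches in capitals: Ndufb4 (chr16:37654319-37654618, minus strand) with 3 NRF1 matches, Ndufs3 (chr2:90904672-90904971, minus) with 2 ETS matches, and Cox6a1 (chr5:115348909-115349208, minus) with 2 NRF1 matches and 1 ETS match, then Cox7a1 (chr7:30183921-30184220, plus), which fell, and Cox7a2 (chr9:79759804-79760103, minus), which rose, both without a match. The Cox7a1 window holds 7 CpG and the Cox7a2 window 20. The other genes that fell, whose windows are not shown, do hold NRF1 matches: Sdha 3 and Ndufaf5 1. The windows shown therefore give no link between a match and a rise.
Ndufb4: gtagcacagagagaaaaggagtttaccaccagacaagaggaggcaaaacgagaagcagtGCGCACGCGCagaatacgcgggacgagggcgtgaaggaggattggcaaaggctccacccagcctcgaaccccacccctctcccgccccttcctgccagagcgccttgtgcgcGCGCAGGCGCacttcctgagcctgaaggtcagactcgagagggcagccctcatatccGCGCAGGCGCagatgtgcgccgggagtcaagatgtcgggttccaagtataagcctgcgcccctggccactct
Ndufs3: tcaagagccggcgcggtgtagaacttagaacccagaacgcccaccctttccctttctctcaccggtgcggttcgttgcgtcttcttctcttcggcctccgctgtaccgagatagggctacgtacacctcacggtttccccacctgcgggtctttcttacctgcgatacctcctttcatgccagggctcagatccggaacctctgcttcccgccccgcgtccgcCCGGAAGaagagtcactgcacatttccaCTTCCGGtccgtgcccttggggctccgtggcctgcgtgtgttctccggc
Cox6a1: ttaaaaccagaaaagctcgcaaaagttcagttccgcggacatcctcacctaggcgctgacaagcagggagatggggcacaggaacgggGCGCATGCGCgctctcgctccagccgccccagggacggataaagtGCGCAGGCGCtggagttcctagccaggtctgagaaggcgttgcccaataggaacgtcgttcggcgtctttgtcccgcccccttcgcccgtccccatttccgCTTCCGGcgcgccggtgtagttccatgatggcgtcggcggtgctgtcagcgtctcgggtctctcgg
Cox7a1: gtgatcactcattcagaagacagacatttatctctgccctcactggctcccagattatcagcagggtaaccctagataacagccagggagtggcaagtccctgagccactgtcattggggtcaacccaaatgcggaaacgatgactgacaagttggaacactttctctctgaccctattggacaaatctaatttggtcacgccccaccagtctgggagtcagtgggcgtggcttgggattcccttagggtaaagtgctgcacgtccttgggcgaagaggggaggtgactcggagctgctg
Cox7a2: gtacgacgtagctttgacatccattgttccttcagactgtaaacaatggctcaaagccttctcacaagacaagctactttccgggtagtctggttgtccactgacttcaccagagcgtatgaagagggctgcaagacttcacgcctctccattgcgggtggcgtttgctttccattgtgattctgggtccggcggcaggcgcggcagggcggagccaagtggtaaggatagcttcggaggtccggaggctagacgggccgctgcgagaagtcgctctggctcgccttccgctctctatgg

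Other mitochondrial gene lists are given by their counts in Ediff cells against EryCP repeat cells, where 38.8% of all genes rose and 17.2% fell. Of 78 mitochondrial ribosome genes 67 rose and 2 fell (median 0.69), and of 25 protein import genes 21 rose and 0 fell (0.63). Of 13 tricarboxylic acid cycle genes 9 rose and 1 fell (0.46), and of 9 genes of pyruvate entry 7 rose and 0 fell (0.69), led by the pyruvate carrier gene Mpc2 (1.66 ± 0.12, adjusted p = 0.000106). The list of pyruvate entry also holds the kinases Pdk1, Pdk2, Pdk3 and Pdk4, which turn off pyruvate dehydrogenase, so its count gives no direction of pyruvate entry. Of 30 assembly and accessory factors 20 rose and 1 fell (0.45), of 5 carriers of ATP and phosphate 1 rose and 1 fell (0.20), and of 17 regulators of mitochondrial genes 6 rose and 4 fell (-0.07). The shares of regulators that rose (35.3%) and fell (23.5%) were near those of all genes, and differences between lists were not tested. Nrf1, which binds the motif above, rose by 0.33, and Tfam, which packages and transcribes mitochondrial DNA, fell by 0.40 (adjusted p = 0.0376). Esrra (-0.49), Polg (-0.71) and Tfb2m (-0.85) also fell. With Tfam these are all 4 regulators that fell. Of the 6 that rose only Nrf1 is named, and the highest difference in the list was 0.87.

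CD34- CD103- Epo cells, the other population taken through Epo-driven differentiation, showed a much smaller difference from CD34- CD103- cells. Of the 94 OXPHOS genes 1 rose and 0 fell, where 0.731% of all 27354 genes rose and 1.85% fell. At an unadjusted p under 0.05, 49 OXPHOS genes were higher and 0 lower, against 10.5% and 6.29% of all genes. The median difference was 0.23, against 0.08 over all genes, and 91 of the 94 genes were positive. The arrays of the groups did not overlap for 46 genes, all of them higher in CD34- CD103- Epo cells, against 19.2% of all genes. Replicates 2 and 4 of CD34- CD103- were on slide 8, which held no CD34- CD103- Epo array, so these counts do not part slide from Epo. With slide as a block the median was 0.17, against 0.02 over all genes, and 0 OXPHOS genes were called. By complex the median was 0.32 for complex III, 0.24 for complexes I and V, 0.27 for the widely used forms of complex IV and 0.13 for complex II. With spike-in scaling the OXPHOS median was 0.02, and within the 2 slides that held both groups it was 0.09 and 0.29.

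The gene that passed was Uqcrb, a subunit of complex III beside its ubiquinone site. It had levels of 5.11, 5.18 and 5.15 in CD34- CD103- Epo cells and 4.89, 4.74, 4.71 and 4.77 in CD34- CD103- cells, without overlap (0.37 ± 0.08, adjusted p = 0.0456). The call was lost with slide as a block (adjusted p = 0.06) and when any 1 array other than CD34- CD103- replicate 1 was left out (adjusted p of up to 0.184). The summed erythroid markers were 4.92 to 5.82 in CD34- CD103- Epo cells and 6.86 to 10.2 in CD34- CD103- cells. This sum, which follows its brightest genes, was lower, not higher, on all arrays taken after Epo. Mast cell and basophil markers summed to 582 to 632 in CD34- CD103- Epo cells and 778 to 860 in CD34- CD103- cells, and macrophage markers to 1.27 to 1.73 in CD34- CD103- Epo cells and 17.9 to 22.2 in CD34- CD103- cells. Other sums were higher in CD34- CD103- Epo than in CD34- CD103- cells: neutrophil markers (251 to 326 against 185 to 217) and megakaryocyte markers (37.9 to 48.6 against 30.9 to 37.3). Lymphoid markers overlapped. The part of these marker differences in the OXPHOS difference was not tested. Against CD34+ CD103- cells, in a comparison that shares the CD34- CD103- Epo arrays with the last, 1 of 94 genes rose and 0 fell (2.77% and 2.49% of all genes), with a median of 0.17 against 0.04. With spike-in scaling 0 rose and 13 fell (0.618% and 36.1% of all genes), with a median of -0.29 against -0.41. That gene was Atp5pb (0.39 ± 0.07, adjusted p = 0.00979), and its call was lost without CD34- CD103- Epo replicate 2 (adjusted p = 0.0526) and with spike-in scaling, where it was -0.0674.

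**Figure D4:**
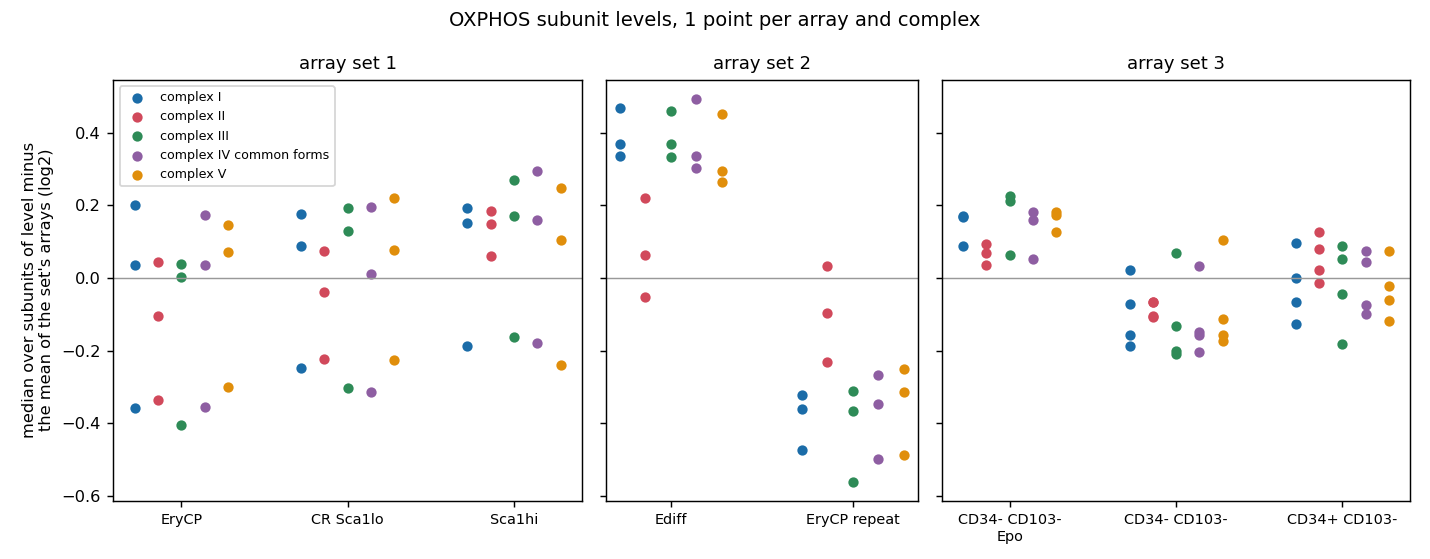
Median over the subunits of each complex of their level minus the mean of the set's arrays (log2, y axis), 1 point per array and complex, by group (x axis) in the 3 array sets. In set 2 all Ediff points of complexes I, III, IV and V lie above all EryCP repeat points, while complex II overlaps. In set 1 the points of the 3 fractions overlap for complexes I, III, IV and V. For each complex the lowest array of each fraction is the one on slide 2.

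The differences after Epo-driven differentiation were set against each other in a contrast over 13 arrays, that in CD34- CD103- Epo minus that in Ediff. Starting population, sorting, array set and any difference in dose or duration of Epo cannot be told apart in it. The contrast was called lower for 57 of 94 genes and higher for 4, where 25.0% of all 24486 genes were lower and 16.3% higher. Its median was -0.46 against -0.33 for all genes. Cox6a2 differed by 0.35 in CD34- CD103- Epo cells and 2.22 in Ediff cells, a contrast of -1.88 (adjusted p = 3.64e-06), and Ndufb4 by 0.09 and 1.33 (-1.25, adjusted p = 6.48e-06). Ndufs3 (-0.99), Cox6b2 (-0.93), Ndufb9 (-0.92) and Ndufa5 (-0.91) followed. The 4 genes on the other side were Cox7a1 (0.93, adjusted p = 0.00233), Ndufaf5 (0.77), Ndufb5 (0.50) and Sdha (0.43, adjusted p = 0.0451), whose contrast was -0.18 in the deposited table and lost its call when 8 of the arrays, in turn, were left out (adjusted p of up to 0.101). With spike-in scaling the median of the contrast was 0.26, with 13 genes called higher and 1 lower (30.5% and 4.10% of all genes) and a median of 0.39 for all genes, so its sign rests on the scaling. With arrays centred on their median, a choice made after seeing the data, 3 genes were called higher and 3 lower (16.4% and 11.6% of all genes). The responses share no array. Across the 94 genes they correlated with r = 0.37 and rho = 0.43, as a description over genes of the same complexes, and over 24486 genes with 0.18 and 0.17. In 86 genes both were positive, and in 85 the response was smaller in CD34- CD103- Epo cells.

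**Figure D5:**
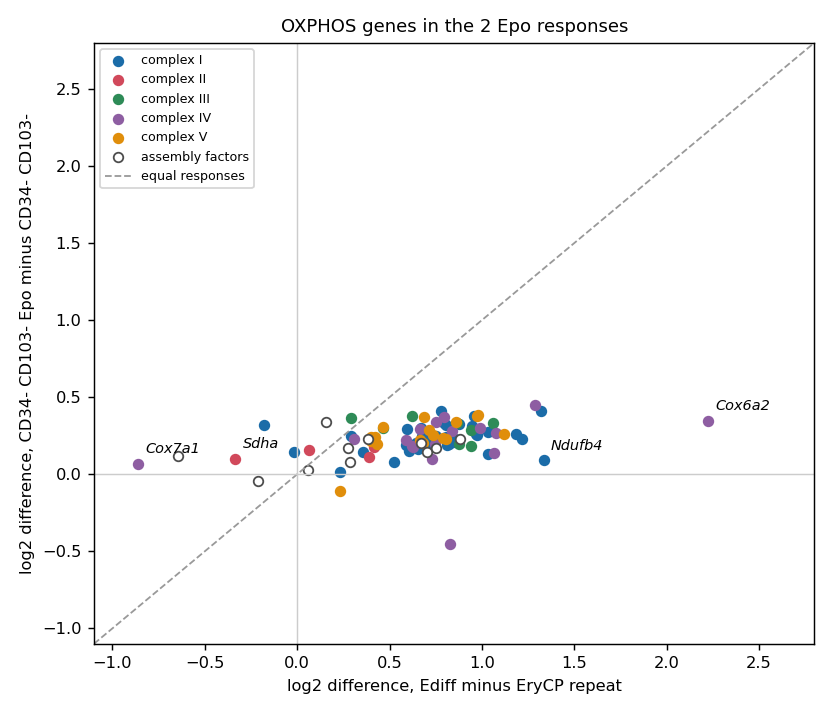
Log2 difference of each OXPHOS gene in Ediff minus EryCP repeat (x axis) and CD34- CD103- Epo minus CD34- CD103- (y axis), coloured by complex, with the line of equal responses. Of the 94 genes 85 lie below the line, with Cox6a2 farthest to the right at 2.22 and Cox7a1 farthest to the left at -0.86.

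CD34- CD103- cells were compared with CD34+ CD103- cells to see what parts them before Epo. Of the 94 OXPHOS genes 2 rose and 4 fell, against 5.93% and 6.07% of all genes, with a median of -0.08 against -0.05. With spike-in scaling 0 rose and 18 fell, against 2.25% and 16.4% of all genes, with a median of -0.32 against -0.29. Atp5pb had levels of 6.70, 6.72, 6.64 and 6.72 in CD34- CD103- cells and 6.26, 6.21, 6.19 and 6.12 in CD34+ CD103- cells, well apart, and rose by 0.50 ± 0.07 (adjusted p = 0.000526). Ndufs8, an iron-sulphur subunit of complex I, had 2.19, 1.93, 1.98 and 2.14 in CD34- CD103- cells and 2.53, 2.40, 2.61 and 2.39 in CD34+ CD103- cells, without overlap, and fell by 0.42 ± 0.09 (adjusted p = 0.00851). The assembly factor Ndufaf2 fell by 0.41 ± 0.07 (adjusted p = 0.00443), Ndufaf6 by 0.34 ± 0.08 (0.0244) and Ndufb5 by 0.26 ± 0.07 (0.0343), and Ndufv3 rose by 0.24 ± 0.07 (0.0451). Calls of Ndufv3, Ndufb5 and Ndufaf6 were lost when 8, 6 and 5 of the 8 arrays, in turn, were left out (adjusted p of up to 0.124, 0.107 and 0.0757). With spike-in scaling Atp5pb was 0.26 and not called (adjusted p = 0.162), and Ndufv3 was -0.0025. Of the 3 probes of Ndufv3 only 1 was called (-0.03 to 0.24).

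The same 6 genes were then read on other arrays, a look taken after their values were seen, in EryCP against CR Sca1lo cells, a pair of fractions that also differ in Cd34 (-4.71, adjusted p = 3.97e-05, against -1.77 between CD34- CD103- and CD34+ CD103- cells). All 6 had the same sign there, as did 5 in EryCP against Sca1hi cells and 1 in CR Sca1lo against Sca1hi cells, comparisons that share these arrays. How often all genes called between CD34- CD103- and CD34+ CD103- cells kept their sign was not counted. The agreement is therefore not shown to be particular to OXPHOS genes. Atp5pb was 0.76 higher, with levels of 6.84, 6.33 and 6.78 in EryCP cells and 5.95, 6.05 and 5.68 in CR Sca1lo cells, and Ndufv3 0.30 higher. Ndufb5 had 1.55, 1.01 and 1.45 in EryCP cells and 2.05, 2.06 and 1.69 in CR Sca1lo cells (-0.60), and Ndufaf6 had 1.05, 0.64 and 0.96 in EryCP cells and 1.49, 1.68 and 1.35 in CR Sca1lo cells (-0.63). Neither pair of groups overlapped. Ndufs8 differed by -0.48 and Ndufaf2 by -0.37. Without slide in the fit 0 of the 6 were called (adjusted p of 0.0658 for Atp5pb and 0.0950 for Ndufaf6, higher for the others). With slide as a block all 6 were called, at adjusted p from 0.00133 (Atp5pb) to 0.0456 (Ndufv3), where 20.0% of all genes were called. The block called 3 of the 6 with the same sign in EryCP against Sca1hi cells and 0 in CR Sca1lo against Sca1hi cells (20.9% and 18.0% of all genes called either way). In CR Sca1lo against Sca1hi cells it called Atp5pb (-0.33, adjusted p = 0.0333), Ndufaf6 (0.48, 0.0113) and Ndufv3 (-0.32, 0.0382) with the opposite sign. The CR Sca1lo arrays enter that comparison and EryCP against CR Sca1lo cells on opposite sides.

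Among the 3 fractions of set 1, few OXPHOS genes were called. In EryCP against Sca1hi cells 1 of 94 rose and 2 fell (3.29% and 3.27% of all genes), with a median of -0.11 against -0.03. In EryCP against CR Sca1lo cells 0 rose and 1 fell (2.81% and 2.27%), with a median of -0.08 against -0.07, and in CR Sca1lo against Sca1hi cells 0 rose and 1 fell (1.26% and 2.40%), with a median of -0.06 against 0.04. Limma's unadjusted p was under 0.05 for 1 gene higher and 6 lower in EryCP against Sca1hi cells (8.32% and 6.78% of all genes), 2 and 6 in EryCP against CR Sca1lo cells (6.85% and 7.43%), and 3 and 4 in CR Sca1lo against Sca1hi cells (7.45% and 5.97%). The median standard error of an OXPHOS difference was 0.21 in this set, against 0.11 for Ediff and EryCP repeat. Here each slide carried all 3 fractions, and the members' median within slides was -0.19 to -0.02 in EryCP against Sca1hi cells, -0.15 to 0.05 in EryCP against CR Sca1lo cells, where it changed sign between slides, and -0.06 to -0.05 in CR Sca1lo against Sca1hi cells.

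Cox6a2 was called in all 3 of these comparisons. It had levels of -0.28, -0.32 and -0.49 in EryCP cells, 1.10, 1.30 and 1.16 in CR Sca1lo cells and 2.33, 2.40 and 2.12 in Sca1hi cells, and the 3 fractions did not overlap. EryCP cells stood 6.27-fold below Sca1hi cells (-2.65 ± 0.14, adjusted p = 3.16e-05) and fell by 1.55 ± 0.14 against CR Sca1lo cells (adjusted p = 0.000544), and CR Sca1lo cells fell by 1.10 ± 0.14 against Sca1hi cells (adjusted p = 0.00512). These comparisons share arrays. Within slides the difference of EryCP and Sca1hi cells was -2.83 to -2.44. In set 3 the gene did not follow CD34: it had 0.00, 0.32 and 0.26 in CD34- CD103- Epo cells, -0.08, -0.09, -0.18 and -0.26 in CD34- CD103- cells and -0.37, -0.02, -0.59 and -0.28 in CD34+ CD103- cells, of which CD34- CD103- and CD34+ CD103- cells overlapped (0.16, not called).

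Cox7a1 had levels of 0.39, -0.05 and 0.06 in EryCP cells, 0.26, 0.18 and 0.05 in CR Sca1lo cells and 0.79, 1.03 and 0.69 in Sca1hi cells. Sca1hi cells lay above both other fractions, which overlapped each other. It fell by 0.70 ± 0.17 in EryCP against Sca1hi cells (adjusted p = 0.0496), a call lost when any of the 6 arrays was left out (0.0527 to 0.227), and differed by -0.68 in CR Sca1lo against Sca1hi cells (adjusted p = 0.083). Sdhaf4, an assembly factor that aids the insertion of Sdha, had 1.60, 1.25 and 1.43 in EryCP cells, 1.00, 1.08 and 0.86 in CR Sca1lo cells and 0.68, 0.62 and 0.64 in Sca1hi cells, in that order without overlap. It rose by 0.78 ± 0.14 in EryCP against Sca1hi cells (adjusted p = 0.0148), a call lost when any 1 array other than EryCP replicate 2 was left out (adjusted p of up to 0.0841).

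With slide as a block, the estimates of set 1 stayed as they were and the counts of calls grew. In EryCP against Sca1hi cells 2 of 94 genes were higher and 15 lower, against 10.7% and 10.1% of all genes. In EryCP against CR Sca1lo cells the counts were 5 and 13 (9.19% and 10.8%). They were 3 and 8 in CR Sca1lo against Sca1hi cells (9.99% and 8.06%). The block kept Cox6a2, Cox7a1 and Sdhaf4. Among the genes it added between EryCP and Sca1hi cells, named here after their values were seen, Ndufs8 (-0.72), Sdhb (-0.62), Uqcrq (-0.54) and Atp5k (-0.51) were lower. Sdhb had levels of 3.60, 3.52 and 3.98 in EryCP cells, 3.98, 3.85 and 3.69 in CR Sca1lo cells and 4.39, 4.39 and 4.19 in Sca1hi cells. Sca1hi cells lay above both other fractions on every array, and the other two overlapped.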

How the data were processed

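Total RNA (150 ng, with spike-in RNA) was amplified, labelled with Cy3 and hybridised to Agilent 1-colour arrays, per the labels' protocols. Per the file headers, spots were read by Agilent Feature Extraction (10.1.1.1 in sets 1 and 2, 10.7.1.1 in set 3). The deposited scanner files hold background-subtracted intensity values and marks for outlying spots and spots well above background. Of 43379 spots 1639 were controls and 0 were saturated. The values of the deposited series table look like log2, with scale and centring unstated. Its column medians were 7.09 to 7.29 and its columns correlated with the scanner values of their arrays with r of 0.958 to 0.981 in sets 1 and 2 and at least 0.9998 in set 3.

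Flagged spots were left out, spots of a probe averaged, and log2 processed signals centred on the array's 75th percentile. A probe was kept in a set when at least 0.5 of its spots were well above background on every array of at least 1 group. Probes were named by accession through a RefSeq table (GRCm38.p6): 27063 of 41174 had a symbol (18374 symbols), 26682 through the newer and 381 through the older array design, and unnamed probes were tested as genes of their own. Of the 95 members 20 had several probes that passed. In Ediff against EryCP repeat 17 of them had a called probe, 14 had all probes called the same way and 0 had probes called in both directions.

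Each set was fitted with limma 3.58.1 in R 4.3.3 (lmFit and eBayes, 2-sided), and calls used a Benjamini-Hochberg adjusted p under 0.05. The contrast of the Epo responses took 13 arrays in a fit of its own. Sets share no slide, so levels were compared only within a set. The number of arrays limits the precision. Between replicates r was 0.968 to 0.9935, and no pair was identical. In data simulated with 200 changed genes, log2 changes of 1 and 2 were recovered in 12% to 19% and 62% to 69% of genes in comparisons of set 1, 52% and 82% for Ediff against EryCP repeat, and 76% to 79% and 96% to 100% in set 3, with 2 to 10 false calls. No slide effect was simulated. In the real Ediff against EryCP repeat comparison 38.8% of all genes rose and 17.2% fell, far more than the 200 simulated. The simulated shares therefore do not give the recovery there.

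Named genes were up to 8 called members per comparison with the largest difference and no overlap, a fixed core of subunits and the isoform families of complexes IV and V. Others are said to be chosen after their values were seen. The members and lists were chosen with earlier results of these data known.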

Additional observations from a re-analysis of the deposited data

Results flagged for a closer look

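The difference between the Epo responses, that in CD34- CD103- Epo cells minus that in Ediff cells, was called for 21 of 35 named OXPHOS genes. The naming rule took up to 8 of these because they were called, so that share is partly fixed by selection. Over all 24486 genes 25.0% were called lower and 16.3% higher. Among the 21 the difference was most negative for Cox6a2 (-1.875), Ndufb4 (-1.245), Ndufs3 (-0.9888) and Cox6b2 (-0.9256). Ndufb9 gave -0.9201, Ndufa5 -0.913, Ndufa6 -0.8978, Cox7a2 -0.8123, Ndufv1 -0.7074, Cox4i1 -0.6908 and Uqcrfs1 -0.678. Ndufb8 gave -0.55, Cox6a1 -0.5466, Atp5g1 -0.5214, Ndufa4 -0.4999, Ndufs1 -0.489, Atp5b -0.476, Cox7a2l -0.4421 and Cox7b -0.4223. Sdha (0.4349) and Cox7a1 (0.9284) were on the other side, since both fell in Ediff cells. The calls of Cox6b2, Atp5g1, Ndufs1, Cox7b, Cox7a2l and Sdha were lost when 5, 6, 8, 10, 11 and 8 arrays, in turn, were left out (adjusted p of up to 0.0776, 0.0609, 0.099, 0.105, 0.101 and 0.101).

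Of 88 groups of 4 arrays tested, 3 held an array far from the other 3, and chance flags about 1 in 20 groups. All were in CD34- CD103- cells. Cox6b2 stood at -0.6197 on replicate 1, where the others were between -1.534 and -1.455. Ndufa4 stood at 4.92 on replicate 3, against 5.003 to 5.011, and Sdhd at 5.672 on replicate 4, against 5.599 to 5.608.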

How the results depend on the processing

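Counts below are OXPHOS genes called and medians are OXPHOS median log2 differences, set against the values in the report. Percentages in parentheses are shares of all genes called the same way. A count without such a share shows no result particular to OXPHOS genes. With slide as a block the calls were 3 higher and 8 lower in CR Sca1lo against Sca1hi (9.99% and 8.06%). They were 5 and 13 in EryCP against CR Sca1lo (9.19% and 10.8%) and 2 and 15 in EryCP against Sca1hi (10.7% and 10.1%). In CD34- CD103- Epo 0 were higher against CD34- CD103- (1.13%) and 3 against CD34+ CD103- (4.03%). The median of the contrast of the Epo responses was -0.60. In the fit of all 26 arrays the calls were 2 and 3, 2 and 5, and 2 and 8 in those comparisons of set 1. They were 1 and 2 in CD34- CD103- against CD34+ CD103-, 0 higher in CD34- CD103- Epo against CD34- CD103- and 32 lower in the contrast. In set 1 the deposited table gave 1 and 5 (3.54% and 4.83%), 4 and 8 (5.58% and 5.75%) and 2 and 10 (5.30% and 5.60%). It gave 0 and 1 in CD34- CD103- Epo against CD34- CD103- (0.494% and 2.04%). The medians of that table were 0.52 in Ediff against EryCP repeat, 0.0897 in CD34- CD103- Epo against CD34- CD103- and 0.0845 against CD34+ CD103-. In set 1 quantile normalization gave 1 and 2 (2.19% and 3.94%), 2 and 3 (4.80% and 3.95%) and 2 and 6 (4.49% and 4.55%). It gave 7 lower in Ediff against EryCP repeat (21.4%) and 21 lower in the contrast (18.4%). In CD34- CD103- Epo 0 were higher against CD34- CD103- (0.545%) and 0 against CD34+ CD103- (2.55%). Medians with quantile normalization were 0.29 in Ediff, 0.10 in CD34- CD103- Epo against CD34- CD103- and -0.19 in the contrast. With a trended robust prior 2 were lower in CR Sca1lo against Sca1hi, 1 higher and 2 lower in EryCP against CR Sca1lo, 4 lower in EryCP against Sca1hi, and 8 and 5 higher in CD34- CD103- Epo against CD34- CD103- and CD34+ CD103-.

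With spike-in scaling 1 was lower in EryCP against Sca1hi, 2 were higher and 27 lower in Ediff (4.17% and 45.0% of all genes), 0 and 18 in CD34- CD103- against CD34+ CD103- (2.25% and 16.4%), 0 higher in CD34- CD103- Epo against CD34- CD103-, 0 and 13 against CD34+ CD103- (0.618% and 36.1%), and 13 and 1 in the contrast (30.5% and 4.10%), with medians of -0.23, -0.32, 0.0156, -0.29 and 0.26 in the last 5. Centring on the median, chosen after seeing the data, gave 0 lower in CR Sca1lo against Sca1hi (0.578%) and 0 and 1 in EryCP against Sca1hi (1.06% and 1.16%). It gave 15 higher in Ediff (15.5%, median 0.41) and 1 higher in CD34- CD103- against CD34+ CD103- (5.49%). In CD34- CD103- Epo 0 were higher against CD34- CD103- (0.625%) and 2 against CD34+ CD103- (2.24%). In the contrast 3 were lower (11.6%, median -0.21). Normexp as planned gave 0 lower in CR Sca1lo against Sca1hi and EryCP against CR Sca1lo (median 0.36), 0 and 0 in EryCP against Sca1hi (0.23), 0 and 0 in Ediff (0.37), 0 higher in CD34- CD103- Epo against CD34- CD103- and 0 and 0 in the contrast (-0.16). The interquartile range of its log2 values was 0.167 on CR Sca1lo replicate 2 and 0.299 on Ediff replicate 1, against 3.08 and 2.81 without spots of outlying local background. That fit, also chosen after seeing the data, gave 1 higher in EryCP against CR Sca1lo (3.34%) and 1 lower in EryCP against Sca1hi (3.65%). It gave 3 and 2 higher in CD34- CD103- Epo against CD34- CD103- (1.28%) and CD34+ CD103- (3.67%). Without a filter on dim probes 1 was lower in EryCP against Sca1hi, 1 higher in CD34- CD103- against CD34+ CD103- and 0 higher in CD34- CD103- Epo against CD34- CD103-. The probe brightest in its set gave 1 lower in EryCP against Sca1hi, and the mean over probes 1 higher in CD34- CD103- against CD34+ CD103-. Within slide 4 the Ediff median was 0.79, and within slide 6 those of CD34- CD103- Epo were 0.0882 against CD34- CD103- and 0.0685 against CD34+ CD103-. Other than from fewer samples or genes, the cause of these moves was not tested.

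When 1 array at a time was left out, counts ran from 0 to 1 higher and 1 to 1 lower in EryCP against Sca1hi, 0 to 1 higher in EryCP against CR Sca1lo, 1 to 1 higher and 2 to 4 lower in CD34- CD103- against CD34+ CD103-, and 0 to 1 and 0 to 2 higher in CD34- CD103- Epo against CD34- CD103- and CD34+ CD103-. They were 63 to 75 higher and 2 to 4 lower in Ediff and 37 to 57 lower in the contrast, with 37 without CD34- CD103- Epo replicate 1. Medians changed sign in set 1, from -0.18 to 0.07, -0.17 to 0.06 and -0.23 to 0.02.

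Genes called in Ediff against EryCP repeat that turned sign with quantile normalization were Atp5b (-0.00087), Atp5g3 (-0.21), Cox8a (-0.11), Atp5a1 (-0.17), Cox5a (-0.29) and Atp5g2 (-0.10), and in the deposited table Atp5a1 (-0.045) and Cox5a (-0.0757). With spike-in scaling they were Cox6a1 (-0.19), Atp5b (-0.26), Atp5g3 (-0.52), Cox8a (-0.35), Atp5a1 (-0.54), Cox5a (-0.63), Atp5g2 (-0.47), Ndufb8 (-0.0591), Sdhd (-0.52), Cox7b (-0.14), Uqcrc2 (-0.47), Ndufa4 (-0.19), Uqcrc1 (-0.31), Atp5g1 (-0.0792), Uqcrfs1 (-0.0617), Ndufs1 (-0.28), Cox7a2l (-0.31), Cox6b1 (-0.19), Sdhc (-0.55), Cox4i2 (-0.31) and Cox8b (-0.11). Ndufv3 in CD34- CD103- against CD34+ CD103- (-0.0025) and Atp5pb in CD34- CD103- Epo against CD34+ CD103- (-0.0674) turned as well. In the contrast of the Epo responses they were Cox6a1 (0.18), Atp5b (0.25), Cox4i1 (0.0314), Ndufb8 (0.17), Cox7b (0.30), Ndufa4 (0.22), Ndufv1 (0.0147), Atp5g1 (0.20), Uqcrfs1 (0.0441), Ndufs1 (0.23) and Cox7a2l (0.28), and in the deposited table Sdha (-0.18). Of 68 calls of named genes, sign and call were both kept in 68 with the trended prior and 67 with slide as a block. They were kept in 67 with the probe brightest in its set, 66 with the mean over probes and 58 without a filter. The deposited table kept 55, the fit of all 26 arrays 53 and quantile normalization 44. Centring on the median kept 21, spike-in scaling 15 and normexp as planned 5. Normexp without spots of outlying local background kept 63 of 65. The alternative with symbols as printed in the scanner files was not run, since the files have no symbol column. By replicate number, no paired analysis was possible because sample numbers in the labels run on across groups. Slide, which pairs the fractions of set 1, was the block instead, with the counts given above. Dim isoforms (Cox7b2, Cox8b, Cox4i2) lie near background, which limits their values.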

Other observations

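Polg, Pdk1 and Mpc2 were picked after their values were seen and stand for no list: of the 9 genes of pyruvate entry, 3 were called lower in CD34- CD103- against CD34+ CD103- cells and 1 in EryCP against CR Sca1lo cells. Polg, the catalytic subunit of the mitochondrial DNA polymerase, was 0.63 ± 0.07 higher in CD34- CD103- than in CD34+ CD103- cells (adjusted p = 0.000224) and 0.92 ± 0.15 higher in EryCP than in CR Sca1lo cells (adjusted p = 0.00895). Pdk1, a kinase that turns off pyruvate dehydrogenase, was lower in both (-0.51 ± 0.09, adjusted p = 0.00371, and -0.94 ± 0.20, adjusted p = 0.0312). Mpc2 was lower in CD34- CD103- cells (-0.34 ± 0.08, adjusted p = 0.0154) and -0.78 ± 0.19 in EryCP against CR Sca1lo cells, where it was not called (adjusted p = 0.0569). In Ediff against EryCP repeat cells these 3 genes had the opposite signs, with Polg at -0.71, Pdk1 at 1.16 and Mpc2 at 1.66. Ucp2, a carrier of the inner membrane, was 2.62 ± 0.10 higher in Ediff cells (adjusted p = 1.11e-05), and Slc25a4, an ADP/ATP carrier, was -0.64 ± 0.09 there (adjusted p = 0.00191).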
